A study of Mus musculus with 10 samples.

Results

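The Myc, Max and Mxd network was followed through 10 genes, Myc, Mycn, Mycl, Max, Mxd1, Mxd3, Mxd4, Mxi1, Mnt and Mga, which were taken by gene symbol from the 26335 rows of the deposited expression table. Each of the 10 genes had 1 row. The cells were an mSCLC line, a mouse small cell lung cancer line that the methods derive from a primary lung tumor of a mouse with conditional gene deletions, Rb1 among them, started by Adeno-Cre given into the trachea. Control cells received DMSO and treated cells received 250 μM stiripentol, an antiseizure medication, for 48 h in both cases, with 5 libraries per group. The comparison asked how transcript levels in this line differed after exposure to the drug. Both groups carry the same deletions and come from 1 line, and the animal's age and strain are not given in the sources used here. The sample records do not say whether the libraries of a group came from separate cultures, so p-values measure only the spread between libraries. In bulk RNA, fewer cells of a kind and less RNA per cell cannot be told apart.

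Myc, N-Myc and L-Myc are transcription factors that bind DNA only as dimers with Max, and they drive genes of ribosome production, metabolism and cell division from E-box sites. Proteins of the Mxd family, Mxi1 and Mnt also pair with Max, occupy the same sites and bring in Sin3 and histone deacetylases to lower transcription. Mga, which carries a T-box itself, pairs with Max in a repressive complex. In small cell lung cancer the 3 Myc family genes are often amplified in a mutually exclusive manner, and Mycl is the one most tied to the classic neuroendocrine form.

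All 10 genes had reads in every library, and Myc had the highest mean of them in both groups. In library cluster B, described below, Mxi1 was above Myc in every library before scaling by length. Of the 3 Myc family genes, Mycn was lower in every stiripentol library than in any control, with a mean level 0.23 times that of control. Myc had a mean level 0.696 times that of control, but its groups overlapped and it did not pass the test over all 10 libraries. Max, Mxi1, Mnt and Mga had mean differences of 0.16 or less on the log2 scale. No member was called among the 9 that could be tested genome-wide. The sign of the difference in Mxd1, Mnt and Mga was not the same in the 2 library clusters, described next.

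Values are log2 CPM, the logarithm of read counts that the authors scaled to library size and deposited. Recovered library totals ran from 22375625 reads in control 5 to 65299372 reads in control 1, and in both groups the libraries formed 2 clusters by their correlation across genes. Cluster A holds controls 1 to 3 and stiripentol 3 to 5, and cluster B holds controls 4 and 5 and stiripentol 1 and 2. Within a group, the correlation was 0.983 to 0.997 inside a cluster and 0.92 to 0.939 between clusters. The sources do not say what the clusters are, and they were set beside each other by size alone. Because the clusters were drawn from these same values, a small spread inside them is partly built in. Every p-value that uses the clusters, as a term, alone or in an interaction, may thus be too low. A gene with no reads has the value -4.82 in controls 1 to 3 and -4.74 in the other libraries, so cluster, normalization set and group cannot be fully told apart. Controls are numbered here as deposited. The paper prints other numbers, since there the value -4.74 belongs to controls 1 and 2 and -4.82 to controls 3 to 5. By the printed numbers, cluster B holds libraries 1 and 2 of both groups and cluster A libraries 3 to 5. What the numbers stand for is not given.

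The lineage of the cells was checked with marker genes. Among 7 of 10 neuroendocrine markers with a row, Ncam1 (92.8 to 154 CPM) and Uchl1 were the ones with a mean above 1 CPM. Insm1, Syp and Dll3, which mark neuroendocrine cells, had at most 10, 20 and 3 reads in any library. The 6 non-neuroendocrine markers, with Vim, Yap1, Rest and Cd44 among them, summed to 4310 to 5470 CPM in control and 4410 to 6010 CPM in stiripentol libraries. Vim (2090 to 3370 CPM in control) and Myh9 (1480 to 2210 CPM in control) made up most of this sum. Rest was lower in stiripentol libraries (40.8 to 71.4 against 76.2 to 99.1 CPM), as was Yap1 (49.1 to 120 against 144 to 175 CPM). For Vim, Myh9, Hes1 and Cd44 the ranges of the groups overlapped. Apart from Ncam1 and Uchl1, the neuroendocrine markers with a row were thus near 0 in cells labelled as small cell lung cancer. The 7 fibroblast markers summed to 404 to 696 CPM in control and 152 to 185 CPM in stiripentol libraries, with 6 of 7 above 1 CPM on average. The 5 tuft markers ran from 25.0 to 53.1 CPM in control and from 70.8 to 124 CPM in stiripentol libraries, with 3 of 5 above 1 CPM. Avil carried the higher sum (0.487 to 4.76 CPM against 25.1 to 59.3 CPM), whereas Pou2f3, the tuft regulator, went from 0.845 to 4.51 CPM in control to 0.0517 to 0.267 CPM in stiripentol libraries. The leukocyte sum ran from 6.52 to 19.0 CPM in control and from 59.0 to 103 CPM in stiripentol libraries. It was carried by Cd68, and Ptprc, which marks leukocytes, had at most 3 reads. The 4 endothelial markers with a row summed to at most 1.2 CPM. The part of these marker shifts in the values of the network was not tested.

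Because all of these factors act through E-boxes, the start of each member gene was searched for CACGTG, which reads the same on both strands. The RefSeq table of promoter windows (GRCm38.p6) spans 250 bases before to 50 bases after each start and held 9 of the 10 members. No window was at hand for Myc. The motif was present in 3 of 9 members (33.3%), against 11.9% of the 9142 tested genes with a window and 7.15% of all 32851 windows. The 3 members are Mxd4, Mnt and Max, printed here with the E-box in capitals, because network proteins recognize these letters. A match describes the sequence and is no evidence of binding.
Mxd4, chr5:34187897-34187956, minus strand: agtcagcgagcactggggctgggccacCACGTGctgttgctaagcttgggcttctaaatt
Mnt, chr11:74830774-74830833, plus strand: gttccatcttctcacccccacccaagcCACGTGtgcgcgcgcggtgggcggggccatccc
Max, chr12:76962229-76962288, minus strand: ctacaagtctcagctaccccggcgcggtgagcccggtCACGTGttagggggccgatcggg
The first base of the motif lies 219 bases before the start in Mxd4, 123 bases before it in Mnt and 3 bases before it in Max, where the motif spans the start. These 3 genes did not move alike with stiripentol, as their values show. The window of Mycn, the member with the largest difference, held no CACGTG. The 120 bases before its annotated gene are given for comparison, in the direction of transcription.
Mycn, chr12:12941915-12942034, minus strand: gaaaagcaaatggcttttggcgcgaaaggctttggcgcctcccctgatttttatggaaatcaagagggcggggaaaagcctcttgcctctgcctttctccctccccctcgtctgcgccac

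Levels of the 10 genes can be compared with each other only per length. Per kilobase of annotated exon, the mean CPM in control libraries was 56.0 ± 21.4 (SD, n = 5) for Myc. Mnt followed with 18.3 ± 3.44, then Mxi1 with 13.7 ± 4.07 and Max with 11.6 ± 1.58 CPM per kilobase (SD, n = 5 each). In this order Mxi1 overlapped with the gene before and after it within their spread, whereas Myc stood above all. Mxd4 had 8.43 ± 0.909, Mxd1 3.33 ± 1.54, Mga 2.88 ± 0.376 and Mxd3 2.29 ± 1.43 CPM per kilobase (SD, n = 5 each), and the last 3 again overlapped within their spread. Mycl had 0.907 ± 0.677 and Mycn 0.632 ± 0.300 CPM per kilobase (SD, n = 5 each), the lowest means of the 10 genes. Over the 5 controls these 2 genes overlapped, but inside each cluster they were apart, in opposite order. Before scaling by length, Mycl had 3.55 to 6.83 CPM and Mycn 1.13 to 1.68 CPM in the controls of cluster A. In the controls of cluster B, Mycl had 0.849 and 1.1 CPM and Mycn 2.96 and 3.31 CPM. Thus the repressor Mnt had more transcript per length than Max, the partner it shares with Myc, in these controls. The sources disagree on the kit, TruSeq total RNA in the records against 3′ Lexogen QuantSeq in the methods, and for 3′ tags the scaling by length would not apply.

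**Figure D1:**
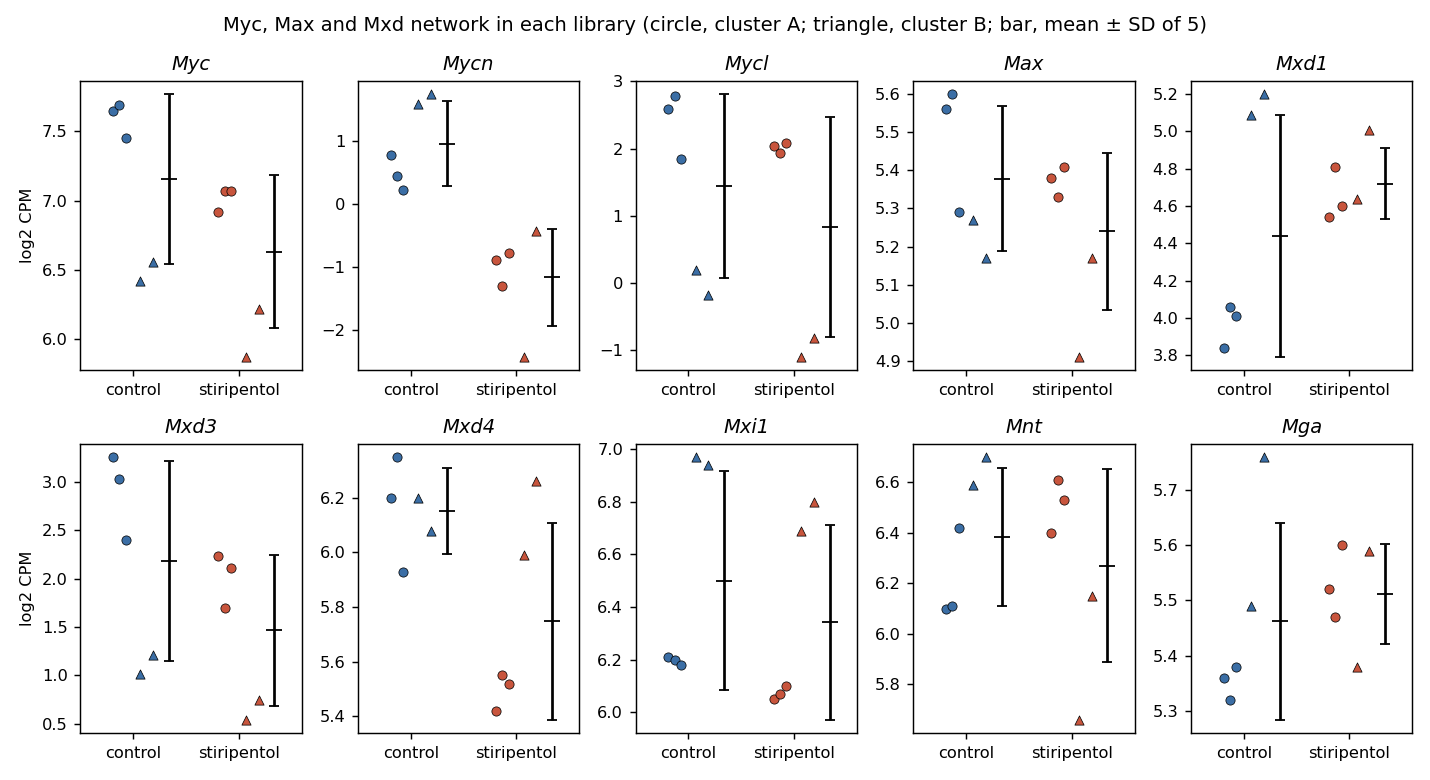
Level of each of the 10 network genes in each library, as log2 CPM on the vertical axis, with control and stiripentol libraries side by side. Circles are libraries of cluster A, triangles those of cluster B, and the bar beside them is the mean ± SD of the 5 libraries of a group. In the panel of Mycn the 2 groups do not overlap, whereas in those of Myc, Mycl, Mxd3 and Mxi1 the clusters lie farther apart than the groups.

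Mycn encodes N-Myc, the family member best known from neuroblastoma, and lies at chr12:12936093-12941914 on the minus strand (GRCm38, ENSMUSG00000037169.15). Its log2 CPM in controls 1 to 5 was 0.78, 0.45, 0.22, 1.58 and 1.74. In stiripentol libraries 1 to 5 it was -2.43, -0.43, -0.89, -1.30 and -0.78. Every stiripentol library lay below every control, and the 2 controls of cluster B were the highest. These values rest on few reads, 72 to 188 in each control and 9 to 41 in each treated library. The mean was 0.95 ± 0.68 in control and -1.17 ± 0.77 in stiripentol libraries (SD, n = 5 each), a difference of -2.12. The two-sided exact permutation test gave p = 0.00794, the smallest that 5 libraries against 5 allow, without adjustment. With labels exchanged only inside clusters, a test added once the values were known, it gave an exact permutation p of 0.0167, the lowest possible over 120 arrangements. Mycn was the 1 network gene of 10 whose groups did not overlap. Over the tested genes, 14.3% lay wholly lower and 13.0% wholly higher in stiripentol libraries.

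The mean of Mycn, -0.11, was below the threshold of 0 for the genome-wide test. In limma fitted with no filter, Mycn fell by 2.12 (log2 scale, with a standard error of 0.47 and an adjusted p of 0.0166). There 6.63% of all 26335 rows, many with few or no reads, were called lower, against 14.1% of the 12306 genes above the filter. With the cluster as a term in the unfiltered fit, added once the values were known, 14.4% of rows were called lower. Above the filter that share was 27.1%. The adjusted p of Mycn with this term was 0.00824 (limma, no filter). Its difference was -1.48 in cluster A (from 0.48 to -0.99) and -3.09 in cluster B (from 1.66 to -1.43). The difference between clusters was -1.61 (standard error 0.76, limma adjusted p = 0.146, no filter). The size depends on how low counts enter the logarithm, since with 1 CPM added to each value in place of the prior the difference was -1.04. Inside a cluster the exact permutation test cannot go below p = 0.1 for 3 libraries against 3 or p = 0.333 for 2 against 2, the values it gave.

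Myc, the family member with the most transcript, lies at chr15:61985391-61990374 on the plus strand (ENSMUSG00000022346.15). Its log2 CPM in controls 1 to 5 was 7.65, 7.69, 7.45, 6.42 and 6.56. In stiripentol libraries 1 to 5 it was 5.87, 6.22, 6.92, 7.07 and 7.07. The groups overlapped because the controls of cluster B lay below the stiripentol libraries of cluster A. Over all 10 libraries the mean was 7.15 ± 0.61 in control and 6.63 ± 0.55 in stiripentol libraries (SD, n = 5 each). The difference of -0.52 did not pass (limma, standard error 0.33, adjusted p = 0.240), and it was -0.33 without stiripentol library 1.

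Inside each cluster the 2 groups were apart. In cluster A the mean of Myc was 7.59 ± 0.13 in control and 7.02 ± 0.09 in stiripentol libraries (SD, n = 3 each), and in cluster B it was 6.49 ± 0.10 and 6.05 ± 0.25 (SD, n = 2 each). Myc fell by 0.58 in cluster A alone (limma adjusted p = 0.000627) and by 0.45 in cluster B alone (limma adjusted p = 0.00992). With the cluster as a term in the fit over all libraries, the standard error of the difference shrank to 0.09 and the adjusted p was 0.00105 (limma). Part of this is built in, since the clusters were drawn from the same values. With 1 mean per group and cluster, the adjusted p of Myc was 0.738 (limma). The difference between the 2 cluster effects was 0.13 as deposited (limma adjusted p = 0.495), and 0.50 when each library was centred on its median gene (limma adjusted p = 0.00932). Cluster A exceeded cluster B by 1.10 in control and by 0.97 in stiripentol libraries, so the gap between clusters was larger than the gap between groups. With the opposite matching of clusters, an alternative added once the values were known, Myc was not called.

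Mycl encodes L-Myc and lies at chr4:122995652-123002485 on the plus strand (ENSMUSG00000028654.13). In controls 1 to 5 its log2 CPM was 2.59, 2.78, 1.84, 0.19 and -0.17. In stiripentol libraries 1 to 5 it was -1.10, -0.81, 2.04, 1.93 and 2.09. Of all 10 members it had the widest gap between clusters, with cluster A above cluster B by 2.40 in control and by 2.97 in stiripentol libraries. Between groups the difference was -0.61 (limma, standard error 0.84, adjusted p = 0.596). It ran from -0.13 without stiripentol library 1 to -1.02 without control 5. The difference was -0.38 in cluster A, where the groups overlapped (limma adjusted p = 0.180), and -0.96 in cluster B (limma adjusted p = 0.0269). With the cluster as a term the adjusted p was 0.0452 (limma). These values rest on 19 to 396 reads per library.

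Max, the obligate partner of the other proteins, lies at chr12:76937269-76962201 on the minus strand (ENSMUSG00000059436.13). Its log2 CPM was 5.56, 5.60, 5.29, 5.27 and 5.17 in controls 1 to 5 and 4.91, 5.17, 5.38, 5.33 and 5.41 in stiripentol libraries 1 to 5. The groups overlapped in both clusters. The mean was 5.38 ± 0.19 in control and 5.24 ± 0.20 in stiripentol libraries (SD, n = 5 each), and the difference of -0.14 had a 95% interval from -0.44 to 0.17 (limma adjusted p = 0.473). It was -0.11 in cluster A and -0.17 in cluster B, and with the cluster as a term it also did not pass (limma adjusted p = 0.224).

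Among the repressors that pair with Max, Mxd1, a gene that rises as many cells differentiate, had differences of opposite sign in the 2 clusters. It lies at chr6:86647042-86669161 on the minus strand (ENSMUSG00000001156.9). Its log2 CPM was 3.84, 4.06, 4.01, 5.09 and 5.2 in controls 1 to 5 and 4.64, 5.01, 4.54, 4.81 and 4.60 in stiripentol libraries 1 to 5. The controls of cluster A were the 3 lowest of all and the controls of cluster B the highest, while the stiripentol libraries lay between. Mxd1 rose by 0.68 in cluster A alone, from 3.97 ± 0.11 to 4.65 ± 0.14 (SD, n = 3 each, limma adjusted p = 0.000775). In cluster B it went from 5.15 ± 0.08 to 4.83 ± 0.26 (SD, n = 2 each), a difference of -0.32 (limma adjusted p = 0.0615). The effects differed by -1.0 between clusters (standard error 0.18, limma interaction, adjusted p = 0.000623). Over all libraries the difference was 0.28 (limma, standard error 0.28, adjusted p = 0.467).

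Mnt, the broadly expressed antagonist of Myc, showed the same pattern. It lies at chr11:74830920-74845725 on the plus strand (ENSMUSG00000000282.12). In controls 1 to 5 its log2 CPM was 6.10, 6.11, 6.42, 6.59 and 6.70, and in stiripentol libraries 1 to 5 it was 5.66, 6.15, 6.4, 6.61 and 6.53. The lowest value of all 10 belonged to stiripentol library 1, and in cluster A the groups overlapped. The difference was 0.30 in cluster A (limma adjusted p = 0.0313), whereas in cluster B Mnt fell by 0.74, from 6.65 ± 0.08 to 5.90 ± 0.35 (SD, n = 2 each, limma adjusted p = 0.000949). The effects differed by -1.04 (standard error 0.20, limma interaction, adjusted p = 0.000961). Over all libraries the difference was -0.12 (limma, standard error 0.20, adjusted p = 0.676), and without stiripentol library 1 it was 0.04.

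Mxd4 is a family member found in many resting and differentiated cells, and lies at chr5:34173883-34187720 on the minus strand (ENSMUSG00000037235.13). Its log2 CPM was 6.20, 6.35, 5.93, 6.20 and 6.08 in controls 1 to 5 and 5.99, 6.26, 5.42, 5.55 and 5.52 in stiripentol libraries 1 to 5. The 3 stiripentol libraries of cluster A lay below all others, and those of cluster B lay within the range of the controls. The mean was 6.15 ± 0.16 in control and 5.75 ± 0.36 in stiripentol libraries (SD, n = 5 each). The difference of -0.41 (standard error 0.17) had an unadjusted p of 0.0373 and an adjusted p of 0.0983 (limma), and Mxd4 was the 1 tested member with an unadjusted p under 0.05. Without stiripentol library 2 the difference was -0.53 and passed (limma adjusted p = 0.0324). Mxd4 fell by 0.66 in cluster A alone (limma adjusted p = 0.00123), and its difference in cluster B was -0.02 (limma adjusted p = 0.896). The effects differed by 0.65 (standard error 0.17, limma interaction, adjusted p = 0.00745).

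Mxd3, whose transcript is found in dividing cells, lies at chr13:55325168-55329823 on the minus strand (ENSMUSG00000021485.14). In controls 1 to 5 its log2 CPM was 3.26, 3.03, 2.40, 1.01 and 1.21, and in stiripentol libraries 1 to 5 it was 0.54, 0.74, 2.23, 1.70 and 2.11. As for Myc, the groups overlapped across clusters and were apart inside each. The difference over all libraries was -0.72 (limma, standard error 0.52, adjusted p = 0.314), and with the cluster as a term the adjusted p was 0.0162 (limma). It was -0.88 in cluster A (limma adjusted p = 0.0130) and -0.47 in cluster B (limma adjusted p = 0.105). The exons of Mxd3 share 105 bases with Prelid1 on the other strand, a gene with 5572 to 17300 reads per library against 51 to 624 for Mxd3. The strand setting of the authors' counting is not given in the sources used here, so the values of Mxd3 are uncertain.

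Mxi1 lies at chr19:53310518-53375810 on the plus strand (ENSMUSG00000025025.14). Its log2 CPM was 6.21, 6.20, 6.18, 6.97 and 6.94 in controls 1 to 5 and 6.69, 6.80, 6.05, 6.07 and 6.10 in stiripentol libraries 1 to 5. It was the most even member inside a cluster, and cluster B lay above cluster A in both groups. The difference over all libraries was -0.16 (limma, standard error 0.23, adjusted p = 0.610). With the cluster as a term the standard error was 0.06 and the adjusted p was 0.0396 (limma), for differences of -0.13 in cluster A and -0.21 in cluster B that passed in neither cluster alone. Its exons share 194 bases with Gm10197, and those of Mxd4 share 514 bases with Gm42846, both on the other strand and with at most 173 and 4 reads.

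Mga, a large scaffold that carries both a T-box and a Max-binding region, lies at chr2:119897228-119969581 on the plus strand (ENSMUSG00000033943.15). Its log2 CPM was 5.36, 5.32, 5.38, 5.49 and 5.76 in controls 1 to 5 and 5.38, 5.59, 5.52, 5.47 and 5.60 in stiripentol libraries 1 to 5. The groups overlapped over all libraries, with a difference of 0.05 and a 95% interval from -0.20 to 0.30 (limma adjusted p = 0.761). It was 0.18 in cluster A (limma adjusted p = 0.0409) and -0.14 in cluster B (limma adjusted p = 0.364), and the effects differed by -0.31 (limma interaction, adjusted p = 0.0705).

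Taken as a list, 8 of the 10 members had a lower mean in stiripentol libraries and 7 were lower in both clusters. Without Mycn, which was not tested, 6 of 9 were lower in both, where 34.1% of the genes tested were. The median difference over all genes tested was itself below 0, at -0.06. Of the 9 tested members, 0 were called over all 10 libraries by limma and 0 by limma voom on recovered reads, and 1 had an unadjusted p under 0.05 in each. Of all 12306 genes tested, 14.1% were called lower and 13.6% higher. With the cluster as a term, Myc, Mycl, Mxd3, Mxd4 and Mxi1 were called lower and 0 members higher, where 27.1% of all genes were lower and 23.6% were higher. With the crossed clusters as a term, 0 members were called and 1 had an unadjusted p under 0.05 (limma), although 24.9% of all genes were called lower. In cluster A alone, Myc, Mxd3 and Mxd4 were lower and Mxd1, Mnt and Mga higher, beside 27.0% and 37.7% of all genes. In cluster B alone, Myc, Mycl and Mnt were lower and 0 members higher, beside 46.5% and 25.7% of all genes. Myc was the 1 tested member that was called lower in each cluster alone.

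The median difference over the 9 tested members was -0.16, against -0.06 over all genes tested. It was -0.13 in cluster A and -0.32 in cluster B, against 0.08 and -0.25 over all genes. The genes as a whole were thus also lower in cluster B. The interaction with cluster passed for 3 of 9 members, Mxd1, Mxd4 and Mnt, a smaller share than the 63.3% of all genes. As deposited, the effect was lower in cluster B for 5569 of these genes and higher for 2223, and after quantile normalization it was lower for 3671 and higher for 3716. The same 3 members also passed after quantile normalization, where 60.0% of all genes did, with differences of -0.63 for Mxd1, 0.86 for Mxd4 and -0.86 for Mnt. Mxd3 passed there as well, with 1.28 (limma adjusted p = 0.00766). After centring on the median gene, 63.6% of all genes passed, and with them the same 3 members, Myc and Mxi1 (0.28, limma adjusted p = 0.0187).

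**Figure D2:**
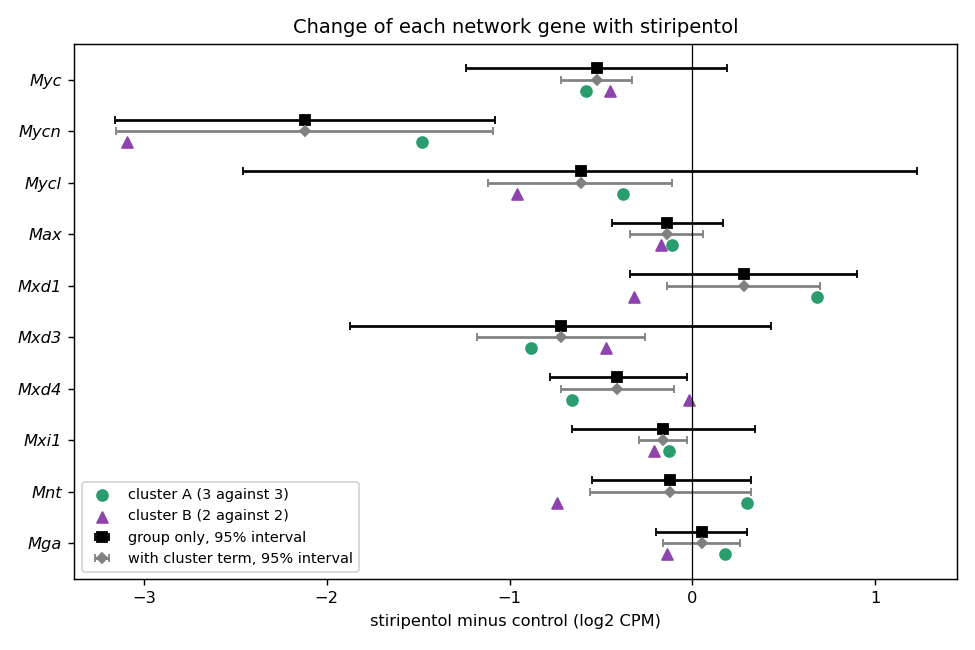
Difference between stiripentol and control in log2 CPM for each network gene, with 0 marked by the vertical line. Squares are the fit over all 10 libraries and diamonds the fit with the cluster as a term, each with its 95% interval (for Mycn both without the filter on low values), circles are cluster A and triangles cluster B. The interval of Myc runs from -1.24 to 0.19 without the cluster term and from -0.72 to -0.33 with it, and the circle and triangle of Mxd1 and of Mnt lie on opposite sides of 0.

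The wider pathway was described from lists of genes by role. Mlx heads the branch that pairs with Mondo proteins in place of Max and senses glucose-derived metabolites. Mlx was higher in stiripentol libraries by 0.67, at 5.84 ± 0.11 against 5.17 ± 0.14 in control (SD, n = 5 each, limma adjusted p = 0.00198). Its rise was 0.79 in cluster A and 0.50 in cluster B. It was the 1 called gene of the 2 tested in this branch, where 13.6% of all genes tested were called higher. Mlxipl was too low to be tested.

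None of the 10 Myc cofactors tested was called by limma, although 5 had an unadjusted p under 0.05, as did 41.7% of all genes tested, and 1 was called by limma voom. Their median difference was -0.08. Of the 9 corepressor genes that Mxd proteins and Mnt recruit, 2 fell and 3 rose, with a median of 0.00. Over all genes tested, 14.1% were called lower and 13.6% higher. Hdac1, a histone deacetylase of the Sin3 complex, fell by 0.92 on the log2 scale (limma adjusted p = 0.00240). Sap30, a Sin3 complex subunit, rose by 0.67 (limma adjusted p = 0.0168), Ncor1 by 0.51 (0.0137) and Sap130 by 0.38 (0.0487). The called genes of this machinery thus did not move in 1 direction.

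In the complex around Mga, 1 of 8 genes tested was called, beside 14.1% of all genes called lower and 13.6% called higher. Rybp, a Polycomb ring-binding protein, rose by 0.77, by 0.49 in cluster A and 1.18 in cluster B (limma adjusted p = 0.0161). The effect differed between clusters for 7 of the 8 genes, where 63.3% of all genes tested did. Among 10 genes of Myc protein turnover 1 was called, beside the same shares of all genes. This was Aurka, the mitotic kinase that holds N-Myc back from degradation, which rose by 1.05 (limma adjusted p = 0.00997). Its control mean was 5.37 ± 0.59 and its mean in stiripentol libraries 6.42 ± 0.05 (SD, n = 5 each). For 7 of the 10 turnover genes the effect differed between clusters, a share near that of all genes (63.3%).

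Of 50 target genes of Myc in ribosome production and growth, 5 fell and 5 rose, in each direction a smaller share than over all genes. Polr1b, a subunit of RNA polymerase I, fell by 1.18 (limma adjusted p = 0.0434). Ldha, the lactate dehydrogenase subunit, fell by 1.15 (limma adjusted p = 0.0143), and Bop1, a factor of large-subunit assembly, by 0.76 (limma adjusted p = 0.0357). Odc1, the first enzyme of polyamine synthesis, rose by 1.40 (limma adjusted p = 0.0213). The mitochondrial chaperonin gene Hspe1 rose by 0.59 (limma adjusted p = 0.0286) and the nucleolar Npm1 by 0.54 (limma adjusted p = 0.0155). Target genes with the same textbook link to Myc thus differed in direction within 1 comparison.

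The median difference of these targets was 0.02, at -0.28 in cluster A and 0.27 in cluster B, where all genes had 0.08 and -0.25. In cluster A, 35 of the 50 were lower, in cluster B 18 were, and 14 were lower in both, beside 34.1% of all genes in both. The interaction passed for 34 of the 50, again near the 63.3% of all genes. Of the 43 targets with a promoter window, 15 (34.9%) held CACGTG, and of these 2 fell and 0 rose (14.1% and 13.6% of all genes), with a median of -0.30 in cluster A and 0.41 in cluster B. Of the 28 targets whose window lacked the motif 2 fell and 4 rose, with medians of -0.24 and 0.25, so the sign in each cluster was alike with and without the motif.

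The 6 genes that Myc is known to repress had a median difference of 0.79, at 0.81 in cluster A and 0.79 in cluster B, with 3 called higher and 1 lower, beside 13.6% and 14.1% of all genes. Gadd45a, a growth arrest and DNA damage gene, rose by 1.96, from 6.61 ± 0.53 to 8.57 ± 0.53 (SD, n = 5 each, limma adjusted p = 0.00142). Gadd45g rose by 1.39 (limma adjusted p = 0.0235) and Ndrg1, a stress-induced gene, by 0.80 (limma adjusted p = 0.0105). Cdkn2b, which encodes the cell cycle inhibitor p15, fell by 1.10, at -1.03 in cluster A and -1.20 in cluster B (limma adjusted p = 0.00112). The other 2 genes, Cdkn1a and Cdkn1b, had differences of 0.79 (limma adjusted p = 0.0552) and 0.30 (limma adjusted p = 0.264). Several of these genes also respond to cell stress, and their link to the level of Myc was not tested.

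**Figure D3:**
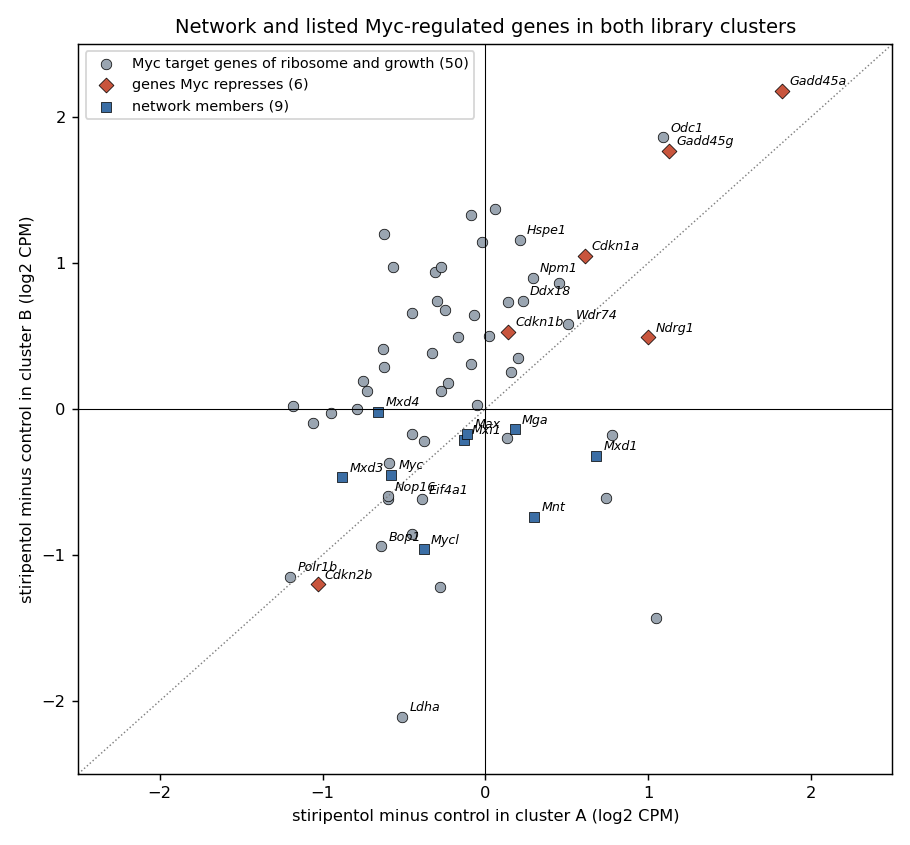
Difference between stiripentol and control in cluster A (horizontal axis) and cluster B (vertical axis), both in log2 CPM, for the 9 tested network genes (squares), 50 Myc target genes (circles) and 6 genes that Myc represses (diamonds). The dotted line marks equal differences. Targets lie mostly left of 0 in cluster A (35 of 50) and above 0 in cluster B (18 of 50 below 0), while Gadd45a and Cdkn2b lie closer to the line than Gadd45g (1.13 and 1.77) and Mxd1 and Mnt lie to the right of 0 and below it.

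The genes whose pattern was nearest to that of Myc were found by the root-mean-square difference over the 10 libraries after each gene was centred on its own mean. Pom121, a nuclear pore gene, was the nearest, at 0.084 on the log2 scale, where Myc itself varied by 0.583 around its mean. It was followed by Ints1 (0.104), Wdr90 (0.108), Dhx37 (0.110) and Rbm19 (0.110). As for Myc, their differences over all libraries, from -0.57 to -0.46, did not pass. The 10 points are the same libraries with the same clusters for every gene, so the likeness is a description.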

How the data were processed

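RNA of mSCLC cells was sequenced in 10 libraries, 5 per group. The values deposited by the authors are log2 CPM, normalized with GENAVi after a small prior (0.837 to 2.38 reads) was added. The submitters' processing notes name mm10, and the aligner, annotation and strand setting are not given in the sources used here. A further 10 columns hold group means and comparisons by the authors and were not used. After removal of the prior, 100% of values under 1000 reads came out whole within 0.1 reads. Read intervals would cover counting error only, and none is given.

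Groups come from the sample titles. Stiripentol was compared with control on the log2 CPM with limma 3.58.1 (R 4.3.3, mean-variance trend, two-sided) over the 12306 genes whose mean exceeded 0, with Benjamini-Hochberg adjustment and calls at an adjusted p under 0.05. Mycn was below this filter and was compared by an exact permutation test (Python 3.11.15). Library clusters came from complete linkage on correlation within each group. Gene positions are from GENCODE M21 (GRCm38). The genes named are all members, the 3 largest called rises and falls of each list, and the 5 genes nearest to Myc. The results of some listed genes are not reported here. The members and lists were chosen with earlier results of these data known. Alternatives were a replicate block, leaving out each library, cluster terms, each cluster alone, means per cluster, other scalings, filters, priors and limma voom. On simulated data for the group comparison over 12306 genes, limma recovered 190 of 200 changed genes with 9 false calls. The simulated libraries had no clusters and the same relative spread for every gene, and each changed gene moved more than Myc did. These counts therefore do not carry over to the deposited libraries.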

Additional observations from a re-analysis of the deposited data

Results flagged for a closer look

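The total of control 5, 22375625 reads, lay far below the other 4 controls, and it was the 1 group of 5 values among 22 tested with a library that far from the rest, where chance gives about 1.1. The effect of stiripentol differed between library clusters for 3 of the 9 tested network genes by the limma interaction test. This is a smaller share than the 63.3% of all genes tested. The effect in cluster B minus that in cluster A was -1.0 for Mxd1, 0.65 for Mxd4 and -1.04 for Mnt.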

How the results depend on the processing

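Over all 10 libraries 0 members were called lower. With the library cluster as a term 5 were, in cluster A alone 3 were lower and 3 higher, in cluster B alone 3 were lower, and with no filter or with a filter of 1 CPM in 5 libraries 1, Mycn, was lower. Mycn passes the 1 CPM filter only through the controls, where it is high, so that call is no support. Leaving out each library in turn gave 0 to 1 members lower, the 1 being Mxd4 without stiripentol library 2. The genes called, 1740 lower and 1674 higher, became 3322 and 4637 in cluster A alone, 5726 and 3158 in cluster B alone, 3336 and 2908 with the cluster term, and 3059 lower with crossed clusters. With 1 mean per group and cluster 0 genes were called either way by limma, and 1116 had an unadjusted p under 0.05, none of them a member. Directions reversed for Mnt in cluster A alone (0.30) and without stiripentol library 1 (leaving out each library gave -0.20 to 0.04), and in cluster B alone for Mxd1 (-0.32) and Mga (-0.14). Quantile normalization, median centring, other priors and limma voom reversed no member. The causes of these differences were not tested.

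With the replicate number as a block, 1062 genes were lower, 1020 were higher and 0 members were called. The exact permutation p of Mycn with this block was 0.0625. That is the smallest p possible when labels are exchanged only inside blocks, so this test cannot decide on Mycn. The block uses the deposited numbers, and libraries with 1 number deviated from their groups with correlations of -0.24 to 0.061. For every number except 3 they set a control beside a stiripentol library of the other cluster. Pairing by the numbers that the paper prints was not tested, so these correlations do not settle whether the libraries are paired. Few reads limit Mycn and Mycl. Limma voom and means per cluster were not run for Mycn.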

Other observations

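These genes were chosen after their values were seen. Pvt1, the long noncoding RNA next to Myc, was higher with stiripentol, at 5.37 ± 0.46 against 4.13 ± 0.30 log2 CPM (SD, n = 5 each), a difference of 1.24 (limma, standard error 0.23, adjusted p = 0.00371). Its groups did not overlap (4.98 to 5.94 against 3.72 to 4.42), and the difference was 0.70 in cluster A and 2.04 in cluster B. Mycbp, which encodes a Myc-binding protein, had a difference of -1.37 (limma adjusted p = 0.0646), at -1.59 in cluster A and -1.03 in cluster B. Fbxw7, the ubiquitin ligase subunit that marks Myc for degradation, had a difference of -1.49 and was not called (limma, standard error 0.8, adjusted p = 0.18). The difference was -0.35 in cluster A and -3.21 in cluster B (limma interaction, adjusted p = 1.33e-06). The interaction passed for 63.3% of all genes tested.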
